A study of Solanum lycopersicum with 12 samples.

Results

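The aluminium (Al) response of wild type (WT) tomato roots was measured by RNA sequencing across all genes expressed at a set minimum. Tomato is Solanum lycopersicum. The members are the 14779 gene models, of 35768 in the deposited table, that reached 1 FPKM or more in at least 3 of the 6 WT libraries. FPKM is a level per unit of transcript length and of library size, so it corrects for the length of a transcript and for the depth of a library. The libraries compared were 3 from roots of WT plants in 60 µM Al at pH 4.7 and 3 from roots of WT plants in 0 µM Al at pH 4.7, so both groups were held in acid solution. Plants were 20 days old, and the replicates are biological replicates per the labels. The labels do not give the length of the exposure or say whether plants were pooled. The series holds 12 libraries, the other 6 being roots of a slstop1 mutant in 60 and 0 µM Al at pH 4.7. The titles of the mutant libraries mark them as a knockout (KO), and the labels state neither the kind of mutation nor the cultivar.

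Aluminium dissolves from clay minerals in acid soil as a trivalent ion that stops root growth, most of all at the root tip. In Arabidopsis the zinc finger transcription factor STOP1 controls tolerance of acid and of Al, in part by switching on genes for the export of malate and citrate, which bind the ion outside the root. Tomato SlSTOP1 is the gene disrupted in slstop1.

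The table lists genes by Solyc identifier and pairs none with a name, and the reference gene table at hand matched none of them. The root label could therefore not be checked against marker genes. Genes are described by response class, abundance and chromosome, the last as numbered in the identifier. Few are named: the pair of rises and the pair of falls with the largest difference in mean FPKM, and SlSTOP1 and SlHAK5, a potassium transporter, as genes known from the study.

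The libraries fell into their groups. Spearman correlations over the tested genes lay between 0.936 and 0.958 within WT with Al, between 0.91 and 0.965 within WT without Al, and between 0.597 and 0.733 across the groups. On log2(FPKM + 1), the first principal component held 79.8% of the variance and separated all 3 Al libraries from all 3 without Al. The second held 8.86% and was led by replicate 3 of WT without Al. That library stood apart from its group, with a mean correlation of 0.917 with the others of its group, and values without it are given beside several of the results below. The number of reads cannot be read from FPKM, but the spacing of low values put the depths of the 6 WT libraries within a factor of 1.24.

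Al changed the larger part of the tested genes in WT roots when no fold minimum was set, and more fell than rose. Of the tested genes 9328 (63.1%) passed the test, 3373 higher (22.8%) and 5955 lower (40.3%) in WT with Al than in WT without Al (limma, Benjamini-Hochberg adjusted p under 0.05). A change of 1 or more on the log2(FPKM + 1) scale was reached by 2196 of the rises (14.9% of the tested genes) and 4052 of the falls (27.4%). The median rise was 1.32 and the median fall -1.33 on that scale, which understates the change of low genes. The groups did not overlap for 9548 genes (64.6%), of which 8913 were called. Among the called genes the smallest absolute change was 0.26. The median SD between replicates was 0.258 in WT with Al and 0.312 in WT without Al, on the same scale.

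The balance of falls over rises depended on the scale. Over all tested genes the median log2 change was -0.28, and that zero point carries over to every change on the FPKM scale. Falls were 63.8% of the calls on FPKM as deposited. After median-of-ratios scaling, 4360 genes were higher and 4963 lower (53.2% lower), with a median of -0.07. After quantile normalisation 4504 were higher and 4818 lower (51.7% lower), with a median of -0.01. Both scalings centre the changes by construction. Without replicate 3 of WT without Al, 3076 genes were higher and 6196 lower.

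**Figure D1:**
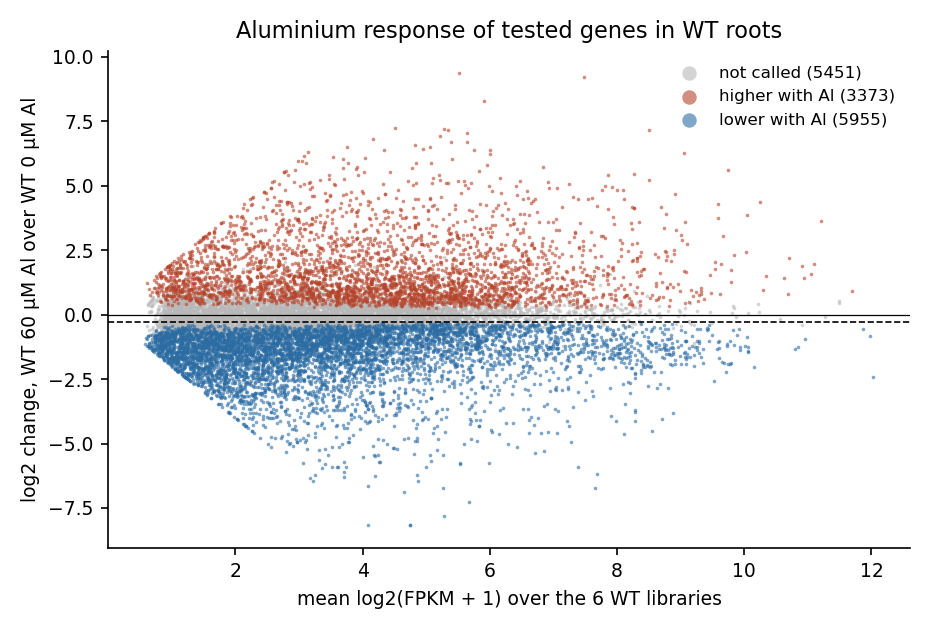
Each point is a tested gene, with its mean log2(FPKM + 1) over the 6 WT libraries on the x axis and its log2 change, WT with 60 µM Al over WT with 0 µM Al, on the y axis. The dashed line is the median of all genes, -0.28, and the 5955 genes called lower outnumber the 3373 called higher.

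Part of the response consisted of genes at or near 0 in one of the groups. The filter itself lets such genes in from either side: 348 genes reached 1 FPKM in every WT library with Al and in no library without Al, and 971 did the reverse, so their difference follows from how they passed. Among the 10851 genes at 1 FPKM or more in all 6 libraries, 2606 rose and 4100 fell. At the edge of the filter, the 1747 genes with exactly 3 libraries at 1 FPKM had a median level of 1.61 FPKM, and the 964 with exactly 2, left out of the test, had 0.828 FPKM.

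A stricter description of switching gave smaller sets. In 102 genes every WT library with Al read 5 FPKM or more and every library without Al under 1 FPKM. Their median level was 15.0 FPKM with Al and 0.248 FPKM without. In 183 genes the order was turned, with a median of 0.31 FPKM with Al and 10.9 FPKM without Al. At 10 FPKM or more the numbers were 50 and 62. Without replicate 3 of WT without Al, the numbers at 5 FPKM were 112 and 235. Some zeros may stand for a failed estimate rather than for an absent transcript: 137 tested genes had a 0 beside 10 FPKM or more within 1 WT group, and 27 of them were called. In all 3 WT libraries with Al 71 genes were listed at 0, and in all 3 without Al 44 genes were.

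The response reached into the most abundant transcripts. Of the 100 genes with the highest mean FPKM in WT with Al, 24 were also among the 100 highest in WT without Al. The 76 that entered had a median level of 1300 FPKM with Al and 179 FPKM without Al, and 73 of them were called higher. The 76 that left had a median of 366 FPKM with Al and 1150 FPKM without Al, and 75 of them were called lower. Both sets were drawn by the same means, so the direction of their changes follows from the choice. Over the 1000 highest, 569 were shared. The corresponding top-100 lists of WT with Al and slstop1 with Al shared 84 genes, and those of WT without Al and slstop1 without Al shared 89.

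Counted as a share of the summed FPKM, the genes that rose took the place of the genes that fell. The 3373 risen genes held 55.1, 56.0 and 59.5% of the sum in the WT libraries with Al, against 16.7, 16.4 and 11.8% in those without Al. The 5955 fallen genes held 23.5, 23.3 and 19.3% with Al, against 61.2, 60.9 and 69.9% without Al. Tested genes that were not called, 5451 in number, held between 20.2 and 21.1% with Al and between 17.8 and 22.1% without Al. Replicate 3 of WT without Al had the lowest share in risen genes and the highest in fallen ones. These shares restate the calls and are not a further test of them.

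**Figure D2:**
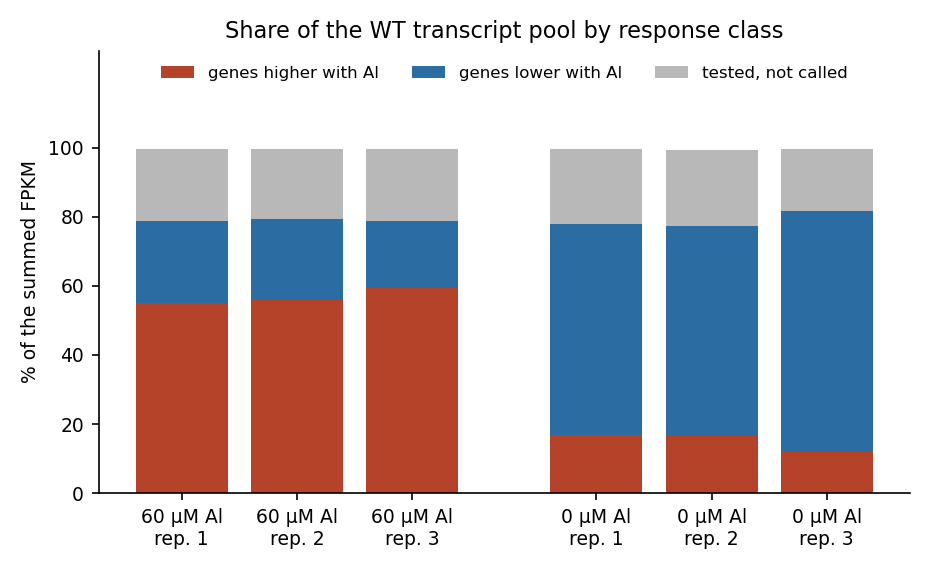
Bars show the percentage of the summed FPKM of each WT library, 60 µM Al on the left and 0 µM Al on the right, held by genes called higher, genes called lower and tested genes not called. Risen genes hold 55.1 to 59.5% with Al and 11.8 to 16.7% without Al.

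The abundant end held a larger share in every WT library with Al than in any without, though 3 against 3 cannot reach p under 0.05. The share of the 10 highest ran from 6.87 to 8.2% with Al. Without Al it was 6.19, 6.6 and 5.08%, the lowest being replicate 3. In each library the 10 highest values together made up 7.51 ± 0.666% of the sum in WT with Al and 5.96 ± 0.786% in WT without Al (SD, n = 3; exact permutation test, two-sided, p = 0.1, the smallest that 3 against 3 can give). The 100 highest made up 27.7 ± 1.05% with Al and 22.7 ± 0.351% without Al (SD, n = 3; exact permutation p = 0.1). Of the tested genes, 12932 ± 187 stood at 1 FPKM or more with Al and 13811 ± 353 without Al (SD, n = 3). The filter used this cut-off on the same libraries, and let in 348 genes only through WT with Al and 971 only through WT without Al. This count is therefore a description without a test. The measures come from the same values and are not independent of each other.

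Rises and falls were spread differently over abundance. The classes include the genes that passed the filter through 1 group only, 348 through WT with Al and 971 through WT without Al. Of these, 341 and 958 were called, in the direction set by how they passed. How they divide over the classes was not counted, so the shares of the lowest class partly reflect the filter to an unknown degree. Among the 4574 genes with a mean under 5 FPKM over the WT libraries, 13.6% rose and 40.6% fell. Among the 5040 genes between 5 and 20 FPKM, 19.9% rose and 41.2% fell. The 3772 genes between 20 and 100 FPKM were nearly even, with 32.5% rising and 37.1% falling. Of the 1167 genes between 100 and 500 FPKM, 37.3% rose and 43.6% fell, and of the 226 genes above that, 38.1% rose and 49.6% fell. The share of rises was lowest in the lowest class under each scaling as well, at 17.1% with median-of-ratios scaling and 25.4% with quantile normalisation. With median-of-ratios scaling the middle classes turned: 42.1% rose and 28.7% fell between 20 and 100 FPKM, and 42.8% rose and 35.1% fell between 100 and 500 FPKM. Quantile normalisation left 26.2% falling in the lowest class, slightly more than rose, so the excess of falls among low genes depended on the scale.

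**Figure D3:**
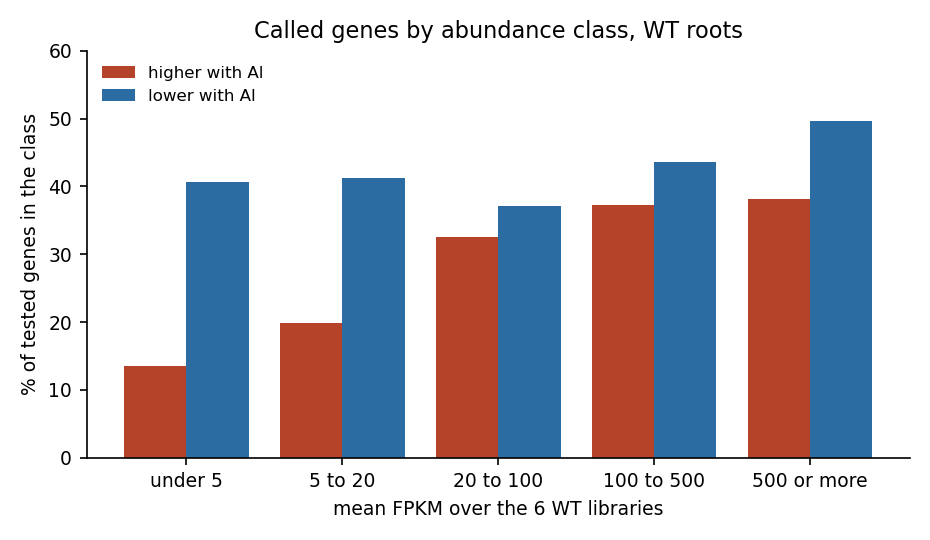
Bars show the percentage of tested genes called higher and called lower in WT with Al, by mean FPKM over the 6 WT libraries. On FPKM as deposited, rises make up 13.6% under 5 FPKM and 38.1% at 500 FPKM or more, and falls between 37.1 and 49.6%; with median-of-ratios scaling rises exceed falls between 20 and 500 FPKM.

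The rises and falls named here were chosen by their difference in mean FPKM, so each was abundant in at least 1 group. Solyc05g016060.3 on chromosome 5 read 9028, 8552 and 7595 FPKM in WT with Al, against 692, 663 and 654 FPKM in WT without Al. The groups lay far apart and the replicates close together. It was the most abundant tested gene with Al and stood at place 166 without Al, a 12.5-fold difference of means (log2 3.64 ± 0.178 SE, limma adjusted p = 1.02e-07).

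Solyc03g020010.1 on chromosome 3 read 5189, 6044 and 6868 FPKM in WT with Al, against 121, 121 and 120 FPKM in WT without Al. The libraries without Al were almost identical, and those with Al were spread over a wider range far above them (log2 5.62 ± 0.157 SE, limma adjusted p = 5.01e-09). This gene moved to place 2 with Al, against place 1083 without Al.

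The most abundant tested gene of WT without Al was Solyc03g096430.1, also numbered on chromosome 3. It read 1681, 1927 and 1817 FPKM in WT with Al, against 12633, 13755 and 5213 FPKM in WT without Al. Replicate 3 without Al was far below its own group but still above every library with Al (log2 -2.42 ± 0.34 SE, limma adjusted p = 9.25e-05). Without that replicate the log2 change was -2.87. It took 0.257% of the summed FPKM with Al and 1.5% without Al.

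Solyc01g099770.3 on chromosome 1, place 17 with Al and place 2 without Al, fell by less. It read 2989, 3705 and 2577 FPKM in WT with Al, against 5480, 5599 and 5054 FPKM in WT without Al (log2 -0.81 ± 0.175 SE, limma adjusted p = 0.00175; -1.25 with quantile normalisation). The groups did not overlap, though the replicates with Al were spread wider than those without.

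Of the study's own genes, SlHAK5 fell with Al in WT. SlHAK5 (Solyc12g005670.2, chromosome 12) belongs to the family of high-affinity potassium transporters of the plasma membrane, and its link to the identifier comes from knowledge of the study rather than from the table. It read 23.1, 14.8 and 30.8 FPKM in WT with Al, against 192, 159 and 59.0 FPKM in WT without Al. Every library with Al was below every library without Al, with replicate 3 again the lowest of those without (log2 -2.42 ± 0.468 SE, limma adjusted p = 0.000884). Without that replicate the log2 change was -2.93. In slstop1 it read 1.04, 0.85 and 0.74 FPKM with Al, against 33.0, 88.1 and 86.6 FPKM without Al (log2 -5.10, adjusted p = 2.67e-06). The difference between these responses, WT minus slstop1, was 2.68 ± 0.662 (SE), which missed the threshold (limma interaction adjusted p = 0.0819, 0.0329 to 0.436 over the alternatives).

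SlSTOP1 (Solyc11g017140.2, chromosome 11) was not called in WT. It read 85.8, 80.8 and 88.6 FPKM in WT with Al, against 72.7, 79.2 and 56.0 FPKM in WT without Al (log2 0.31 ± 0.138 SE, limma adjusted p = 0.0731). The groups did not overlap, but the gap between the nearest libraries was small. The call was made with median-of-ratios scaling (0.55, adjusted p = 0.0013) and without replicate 2 of WT without Al (0.41, adjusted p = 0.0318). The change was smaller without replicate 3 of WT without Al (0.16, adjusted p = 0.211) and with quantile normalisation (0.21, adjusted p = 0.161). Over all alternatives the adjusted p ran from 0.0013 to 0.337.

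**Figure D4:**
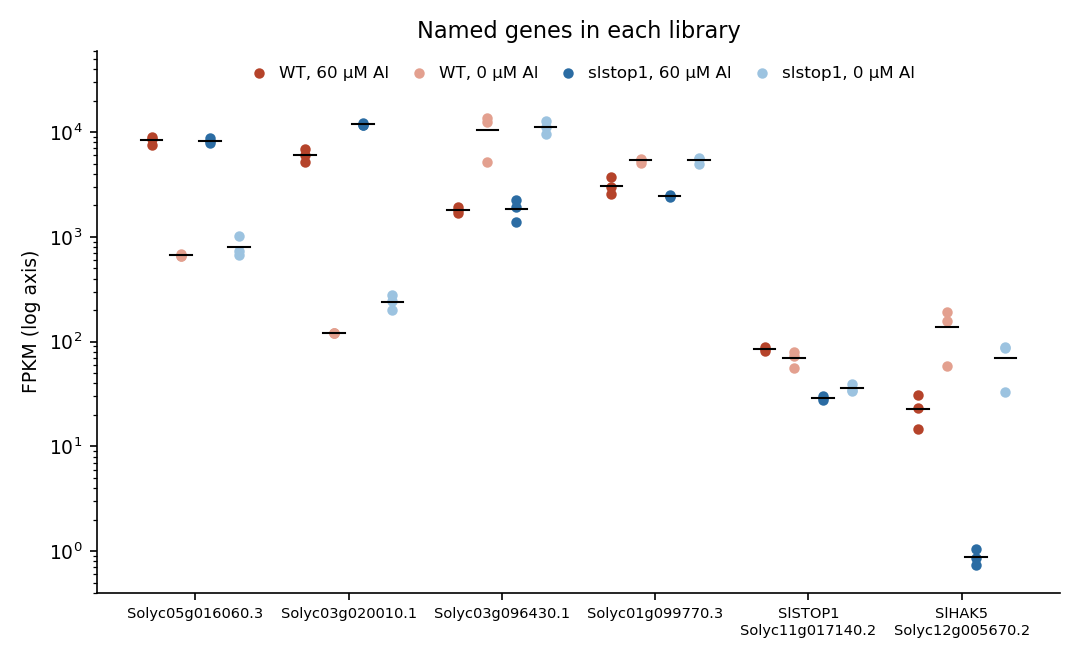
Points are the FPKM of each library on a log axis, with a bar at each group mean (n = 3), for the 2 rises and the 2 falls with the largest FPKM differences in WT and for SlSTOP1 and SlHAK5. In WT, Solyc03g020010.1 stands at 5189 to 6868 FPKM with Al and at 120 to 121 FPKM without, and SlHAK5 at 14.8 to 30.8 FPKM with Al and at 59.0 to 192 FPKM without.

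Most of the WT response was also present in slstop1, whose libraries enter the WT test only through the estimate of the spread. The same test called 10122 genes (68.5%) for Al in slstop1, 3245 higher (22.0%) and 6877 lower (46.5%). Of the 3373 genes that rose in WT, 2817 also rose in slstop1, and of the 5955 that fell in WT, 5713 also fell there. Only 23 genes were called in opposite directions. Both tests share 1 estimate of the spread, from all 12 libraries. With the 6 WT libraries alone, 7954 genes were called for Al in WT, 2746 higher and 5208 lower.

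The sizes of the response were close in WT and slstop1 for rises and less so for falls. The genes called higher in WT had a median change of 1.32 there, against 1.21 in slstop1, and those called lower had -1.33 in WT against -1.69 in slstop1. Among the 217 rises of at least 4 on the log2 scale, the median was 4.72 in WT and 4.41 in slstop1, and 207 were called higher in slstop1. Among the 189 falls of that size the median was -4.69 in WT and -5.34 in slstop1, and 186 were called lower in slstop1. These genes were chosen by their WT values, so the medians are given as a description without a test. The median of all tested genes was -0.28 in WT and -0.46 in slstop1. Measured from these medians, the rises stood at 1.60 in WT and 1.67 in slstop1 over all of them, and at 4.14 in WT and 4.06 in slstop1 for those of at least 3, so that the order depended on the size class. The falls stood at -1.05 in WT and -1.23 in slstop1 over all of them. On the FPKM scale the 102 genes switched on had a median change of 3.73 in WT and 3.41 in slstop1, and 44 of them met the same limits in slstop1. The 183 switched off had a median of -3.17 in WT and -3.32 in slstop1, and 139 of them met the same limits there.

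The difference between the responses passed the test for 193 genes (1.31%), with the WT response higher, or less negative, in 184 (1.25%) and lower in 9 (0.0609%). Without replicate 3 of WT without Al, these numbers were 342 and 60. The median of that difference over all genes was 0.19, against 0.03 with median-of-ratios scaling, under which 89 were higher and 13 lower. Of the 184, 95 fell in WT and fell further in slstop1, with a median of -1.93 in WT and -3.85 in slstop1. In 48 the gene rose in WT, by a median of 2.33, against 0.23 in slstop1. The other 41 were not called in WT (median -0.12) and all fell in slstop1 (median -2.55). Among the genes with the larger WT responses, the difference was called for 27 of the 1003 rises and 49 of the 1477 falls of at least 2 on the log2 scale. In 13 genes, each with a called interaction, WT rose while slstop1 fell. Their median change was 0.85 in WT and -0.65 in slstop1. Their median level was 67.1 FPKM in WT with Al and 40.0 FPKM in WT without Al, against 26.2 FPKM in slstop1 with Al and 39.1 FPKM in slstop1 without Al. All these classes were chosen by calls on the same values, so their medians are a description and not a further test.

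The 2 rises and 2 falls named above were not among these. Their interaction had limma adjusted p-values between 0.613 and 0.992. Solyc03g020010.1 stood higher in slstop1 at both doses, at 6033 ± 840 FPKM in WT with Al and 121 ± 0.414 FPKM in WT without Al, against 11906 ± 314 FPKM in slstop1 with Al and 241 ± 38.1 FPKM in slstop1 without Al (SD, n = 3). Its change with Al was almost equal, 5.62 in WT and 5.63 in slstop1.

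**Figure D5:**
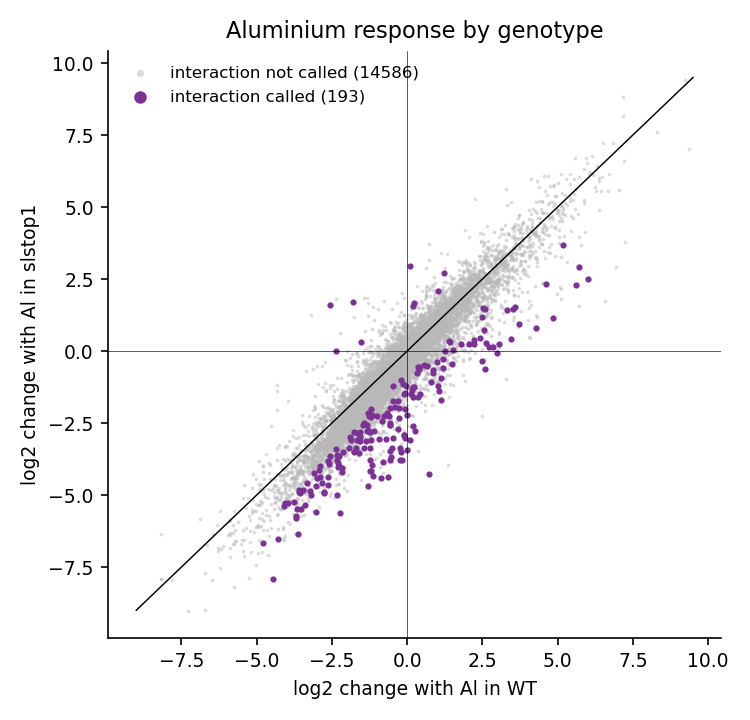
Each point is a tested gene, with its log2 change with Al in WT on the x axis and in slstop1 on the y axis, and the line marks equal changes. The 193 genes with a called interaction are in purple, and 184 of them have the more positive change in WT.

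Called genes lay on every chromosome. Over chromosomes 1 to 12, as numbered in the identifier, between 17.6% (chromosome 11) and 24.6% (chromosomes 1 and 4) of the tested genes rose, and between 36.5% (chromosome 4) and 45.2% (chromosome 12) fell. The median log2 change was lowest for chromosome 12, at -0.42, and highest for chromosome 4, at -0.17. These differences were not tested.

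Directly neighbouring genes resembled each other slightly. Over 14675 pairs of tested genes next to each other in the numbering, the log2 changes in WT correlated at r = 0.11 across pairs, which share libraries and can share reads where genes are near copies. At 2 places apart r was 0.052, and at 20 places 0.0034. The gene after a risen gene had also risen in 27.6% of cases, against 24.0% at 20 places apart. The gene after a fallen one had fallen in 44.7%, against 40.5% at 20 places. No p is given, since genes are not independent replicates.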

How the data were processed

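The authors deposited a single table of values for 35768 gene models in 12 libraries. The values are taken as FPKM: the header names no unit, the values have decimals and the column sums differ. Per the submitters' processing notes, tools included HISAT2, TopHat2, Cufflinks and StringTie, with no version or role. For the genome build and the annotation, nothing is given in the sources used here. Read totals are unknown, and no counting intervals were computed. Relative depth came from ratios of low values between libraries (51 of 66 library pairs within 0.03 log2 of a single set).

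From the deposited FPKM, a model of log2(FPKM + 1) was fitted (limma 3.58.1, R 4.3.3; group means over all 12 libraries, eBayes with trend, 8 residual degrees of freedom). Genes with 1 FPKM or more in at least 3 of the 6 WT libraries were tested, two-sided, and called at a Benjamini-Hochberg adjusted p under 0.05 with no fold minimum. The contrasts were Al against no Al in WT and in slstop1, and their difference. Figures were drawn with matplotlib 3.10.9 in Python 3.11.15. The fit was also run on simulated data in which a small set of genes changed, as many up as down. Its outcome is not given here, and its setting differs from the broad response described above. No library duplicated another: at least 98.4% of tested genes differed between any pair of WT libraries.

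The members, tests, gene lists and rules were chosen with earlier results of these data known. Named genes were the 2 rises and 2 falls with the largest difference of mean FPKM among called genes whose groups did not overlap, genes with values identical to another's left out, plus SlSTOP1, the disrupted gene. SlHAK5 comes from the gene lists, which were to be used only for identifiers that the files, the study or the reference annotate. No listed identifier was annotated by the deposited values or the reference, and SlHAK5 was kept from knowledge of the study. Apart from SlSTOP1, the other listed genes and the green tissue markers were not used here. SlHAK5 therefore does not stand for the other genes of its list.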

Additional observations from a re-analysis of the deposited data

Results flagged for a closer look

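The Al response differed between WT and slstop1, by the limma interaction test, for 193 genes, which singles this result out. The WT response was the higher one in 184 of them and the lower one in 9. Fits with median-of-ratios scaling and with quantile normalisation called 102 and 51 genes in total, so the count depended on the scale. How many of these were among the 193 was not counted. Groups of 3 libraries are too small for a test of single outlying libraries.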

How the results depend on the processing

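The number of genes called for Al in WT lay within 1.5 times of 9328 under every alternative tried. It was lowest at 6248 of 14779 genes (log2 change of at least 1). It was highest at 10354 of 23873 genes, with no filter on low values. In both of these the called genes were the minority of those tested. The number was 8466 to 9272 when 1 WT library was left out. No gene was called in opposite directions between the FPKM scale and any alternative. Median-of-ratios scaling and quantile normalisation shared 8336 and 8124 of the 9328 calls in the same direction. A pair of alternatives was added after the data were seen: 9312 genes were called without genes that had a 0 beside 10 FPKM or more in 1 group, and 7018 with the 6 WT libraries alone less replicate 3 of WT without Al. Whether the replicate numbers pair the libraries is not settled by the values. Deviations of same-numbered WT libraries from their group means correlated at -0.0941, -0.0366 and -0.262, and those of differently numbered ones between -0.221 and 0.274. Deviations within a group cancel out, so these correlations constrain each other and cannot exclude a pairing. With the replicate number as a block 9099 genes were called for Al in WT and 76 for the interaction. The count of interaction genes, 193, was the less stable one, at 124 with no filter, 102 with median-of-ratios scaling, 51 with quantile normalisation, and between 83 and 402 when 1 WT library was left out. The 402 came from leaving out replicate 3 of WT without Al, and the other counts past 1.5 times were 87 without replicate 1 of WT with Al, and 83 and 115 without replicates 1 and 2 of WT without Al. The cause was not tested. The interaction of Solyc03g020010.1, -0.01, turned to 0.042 with quantile normalisation and ran from -0.111 to 0.092 when 1 WT library was left out (0.092 without replicate 1 of WT with Al), and that of Solyc03g096430.1, 0.19, turned to -0.028 with median-of-ratios scaling and ran from -0.26 to 0.44 when 1 WT library was left out (-0.26 without replicate 3 of WT without Al). Neither was called under any alternative. The interaction of SlHAK5 was called with a pseudocount of 0.1 (3.56, adjusted p = 0.0329) and under no other of its 17 alternatives.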

Other observations

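In the numbering of the identifiers, the window of 20 neighbouring tested genes with the most called falls lay near the start of chromosome 5, where 19 of 20 fell in WT with Al. Over all tested genes 40.3% fell. The densest windows of chromosomes 11 and 12 held 17 falls of 20 each, and those of chromosomes 3, 7 and 8 held 16 each. The window on chromosome 5 was picked as the densest after the values were seen and is described without a test. Its genes summed to 104.4, 121.7 and 92.33 FPKM in the WT libraries with Al, against 292.3, 287.9 and 241.1 FPKM in those without Al. Every library with Al was thus below every library without. Their median log2 change was -1.18 in WT and -1.29 in slstop1.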
